A study of Mus musculus with 8 samples.

Results

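Molecular chaperones bind proteins that are unfolded or not yet assembled and keep them from clumping. HSP70 proteins hold short stretches of a client in a cycle of ATP binding and release, DNAJ proteins (the HSP40 family) bring clients to HSP70 and start that cycle, HSP90 acts on nearly folded clients such as kinases and steroid receptors, the CCT ring folds actin and tubulin in a closed chamber, and small heat shock proteins hold clients without using ATP. Neurons use the same system for jobs of their own, among them the removal of clathrin from synaptic vesicles and the upkeep of the release machinery, and separate sets of chaperones work in the cytosol, the endoplasmic reticulum (ER) and the mitochondria.

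The chaperone genes described here were taken by symbol, with 1 row of the table kept per gene. Symbols begin with Hspa, Hspb, Hspd, Hspe or Hsph and then a digit, a or b, which leaves out Hspbp1. Others begin with Hsp90, with Dnaja, Dnajb or Dnajc and then a digit, or with Cct2 to Cct8. The rule took 79 of the 18939 genes with a count: 14 of the HSP70 family (with Hsph1), 3 of HSP90, 2 of the mitochondrial HSP60 and HSP10 pair, 8 Hspb genes, 4 Dnaja, 11 Dnajb and 27 Dnajc genes, 9 Cct genes, and Hspbap1, which matches by name and is not a chaperone of these families. Hspb11 also matches by name and is known as a protein of intraflagellar transport. Tcp1, the CCT subunit whose symbol does not begin with Cct, falls outside the rule.

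The RNA was bound to ribosomes of neurons that express the mu opioid receptor (MOR) in a midline thalamic nucleus, the paraventricular thalamus (PVT), purified by translating ribosome affinity purification (TRAP). All animals were OPRM1cre X EGFP-L10a mice, in which Cre from the MOR gene switches on a tagged ribosomal protein, so any cell that has expressed Cre contributes. The morphine group (4 libraries) drank morphine in 0.2% saccharin for 11 days, at a concentration that by the study's methods was raised in steps to 0.5 mg/ml, and the control group (4 libraries) drank 0.2% saccharin alone. Each group has 2 male and 2 female libraries (control 1 and 2 and morphine 3 and 4 male, control 5 and 6 and morphine 7 and 8 female), and by the labels each library pooled the PVT dissections of a pair of mice of 1 sex. By the age in the study's methods the mice were young adults.

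Total counts ran from 37081348 to 43311793 per control library and from 31151103 to 47582947 per morphine library. Control 5 is labelled female and held 4 Y-linked genes at 28.7% to 35.8% of the mean CPM of the male libraries, with no more than 2 counts of any of them in the remaining female libraries, so the main counts that turn without it are also given without it. Markers of the labelled cells were present, and Oprm1, the MOR gene, had 32.3, 29.4, 16.8 and 22.7 CPM in control 1, 2, 5 and 6 and 15.9, 14, 17.6 and 18.4 CPM in morphine 3, 4, 7 and 8, with a log2 fold change, morphine against control, of -0.62 (SE 0.19, adjusted P = 0.207), and of 8 markers of midline thalamus and MOR neurons 7 had a log2 fold change below 0. Here CPM is a gene's count scaled to the same normalized total in every library, SE is the standard error, and P values are adjusted over all genes. Markers of neighbouring tissue differed in level between libraries: the summed level of 13 choroid plexus markers was 36.1 to 112 CPM in the control libraries and 131 to 404 CPM in the morphine libraries, and that of 13 markers of telencephalic pyramidal neurons was 446 to 767 and 773 to 1232 CPM, with 12 of 13 and 13 of 13 markers at a log2 fold change above 0. Ependymal markers summed to 15.6 to 20 CPM in the control and 15.2 to 22.6 CPM in the morphine libraries, with Tmem212 at 0 in at least 1 library, and medial habenula markers to 86.5 to 110 and 70.8 to 103 CPM. In bulk RNA, fewer cells of a type and less RNA per cell cannot be told apart.

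Heat shock factors and the ER stress pathway are known to act on chaperone genes through short elements near their start sites. The promoter table of RefSeq (GRCm38.p6), with 250 bases before and 50 after each start, held 83 windows for 64 of the 79 genes. A search on both strands for a strict heat shock element, TTCNNGAANNTTC, found it in 6 of the 83 chaperone windows (7.23%) and in 198 of all 32851 windows (0.603%). The same search for the ER stress response element, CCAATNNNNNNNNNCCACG, found it in 3 of 83 (3.61%) and in 39 of 32851 (0.119%). The heat shock element was in windows of Dnajb6, Hspd1, Hspe1 and Hsph1, and the ER element in those of Hspa5, Hsp90b1 and Dnajc3, which code for the ER's HSP70, HSP90 and an ER J protein. Dnajb6 and Hsph1 each count for more than 1 window, because different starts of the gene cover the same bases. The Hsph1 match lies after the start and is not printed. The stretches upstream of the start are shown because they mark which chaperones carry each element, read on the strand of the gene, with the match in capitals.
Hspa5 (chr2:34772020-34772048, + strand): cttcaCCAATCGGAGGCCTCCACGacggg
Hsp90b1 (chr10:86705633-86705661, - strand): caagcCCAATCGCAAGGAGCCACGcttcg
Hsp90b1 (chr10:86705528-86705556, - strand): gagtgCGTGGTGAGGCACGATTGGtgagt
Dnajc3 (chr14:118937822-118937850, + strand): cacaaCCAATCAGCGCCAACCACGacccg
Hspd1 (chr1:55088056-55088084, - strand): gcggggccTTCCGGAAGGTTCtagaacgg
Hspe1 (chr1:55088056-55088084, + strand): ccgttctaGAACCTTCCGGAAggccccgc
Dnajb6 (chr5:29735844-29735872, + strand): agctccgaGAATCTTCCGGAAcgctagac
The second Hsp90b1 stretch and those of Hspe1 and Dnajb6 hold the element on the strand opposite to the gene, so that their capitals are its reverse complement. The stretch of Hspd1 and Hspe1 holds a further match, which overlaps the one in capitals and lies on the other strand from it, and only 1 of the 2 is marked. Hspd1 and Hspe1, the mitochondrial HSP60 and HSP10, are neighbours that are read in opposite directions from 1 shared stretch, so the sequences printed for them are the same bases on opposite strands. A match is a description of letters and says nothing of whether a factor was bound, and a window without a match says only that these letters are not in it.

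The level per length was highest for the constitutive cytosolic chaperones. Levels between genes are given as CPM per kilobase of transcript, as the mean of the 8 libraries. Hsp90ab1, the constitutive HSP90, stood at 393 CPM per kilobase, and Hspa8, the constitutive HSP70 that also strips clathrin from vesicles, at 234. Dnajc6 (auxilin), the J protein that recruits HSP70 to clathrin coats in neurons, came next at 141, and Dnajc5 (cysteine string protein), which looks after the release machinery on synaptic vesicles, was at 95. The heat-inducible HSP70 genes were near the bottom, with Hspa1a at 0.953 and Hspa1b at 0.449 CPM per kilobase. Of the 50-base words in the Hspa1a transcript 60.3% also occur in transcripts of other genes, mostly Hspa1b, and for Hspa1b the share was 62.3%, mostly Hspa1a, so reads could be split between the pair.

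**Figure D1:**
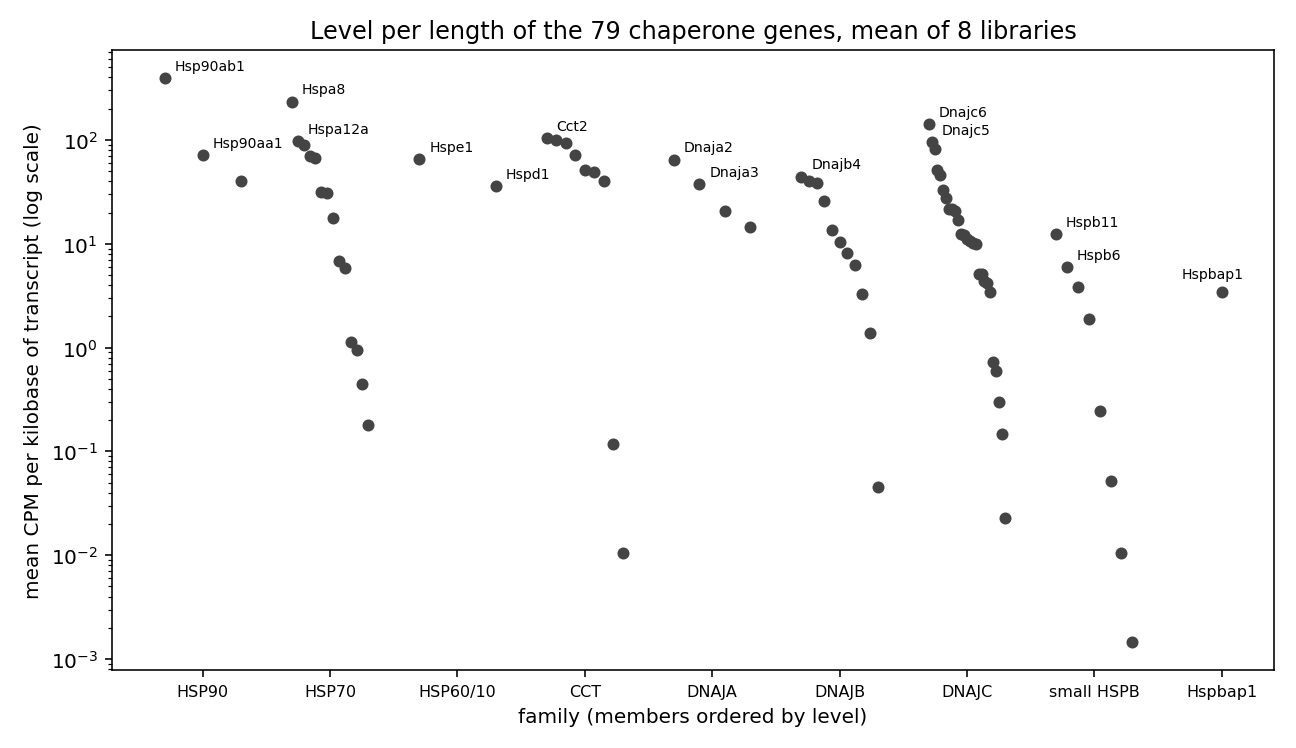
Mean CPM per kilobase of transcript over the 8 libraries (log scale) for the 79 chaperone genes, 1 point a gene, with families side by side and members ordered by level within each. Hsp90ab1 (393) and Hspa8 (234) stand above every other member, and the HSP70, DNAJB, DNAJC, CCT and small HSPB families each hold members below 1.

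Within families the range of level was wide. In the control libraries Hsp90ab1 had 399 ± 57.9 CPM per kilobase (SD, n = 4), Hsp90aa1, the inducible cytosolic HSP90, 72.7 ± 8.96, and Hsp90b1, the ER form, 33.7 ± 7.84. Of the HSP70 family, Hspa8 was followed by Hspa12a (96.8), Hsph1 (88.5), a nucleotide exchange factor of the HSP110 type, Hspa9 (69.5), the mitochondrial HSP70, Hspa4 (66.3) and Hspa4l (31.7), both of the HSP110 type, and then Hspa5 (31.1), the ER form known as BiP. The 7 CCT subunits in use lay close to each other, from 40.2 for Cct6a to 104 for Cct2, while Cct6b, a relative of Cct6a known from testis, was at 0.117. Hspe1 and Hspd1 stood at 65.1 and 35.7, Dnaja2 and Dnaja3 led the DNAJA group with 64.7 and 37.3, and Dnajb4 and Dnajb2 led DNAJB with 44.4 and 40.4.

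Small heat shock genes taken by the rule had low levels. Hspb11, not a chaperone despite its name, was at 12.4 CPM per kilobase, and Hspb6, the highest of the other Hspb genes, at 5.92. Small heat shock genes with other symbols were not looked at. Of the 79 genes, 70 had a mean of at least 10 counts over the libraries. The other 9 were Hspb2, Hspb3, Hspb7, Hspb9, Cct6b, Cct8l1, Dnajb13, Dnajc22 and Dnajc5b, several of them known from muscle or testis. Hspb9 and Hspb7 had counts in 1 library each.

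Some levels could include reads of near-identical copies. For Hspa8, 73.2% of the 50-base words of the transcript also occur in transcripts of other genes, most in the pseudogene Gm15459. The share was 58.9% for Hspb1 (mostly Hsp25-ps1), 58.5% for Hsp90aa1 (mostly Gm12346), 44.8% for Hspd1, 41.9% for Dnajb6, 36.1% for Hspe1 and 18.7% for Dnaja1. How such reads were assigned is not given in the sources used here. Overlapping genes add to this: Hspd1 and Hspe1 overlap each other, Cct7 overlaps Pradc1, Cct8 overlaps Usp16, Dnajb4 overlaps Fubp1, Hspa5 overlaps Rabepk, and Dnajc30 overlaps Bud23, and the counts are not stated to use strand.

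Whether chronic morphine went with a different chaperone level in these neurons was asked by comparing the morphine group with the control group. None of the 79 chaperone genes passed the test (edgeR's quasi-likelihood test, adjusted P under 0.05 over 18939 genes), where 37 of all genes (0.195%) did. At an unadjusted P under 0.05, 7 members were higher in the morphine group (8.86%, against 6.79% of all genes) and 2 were lower (2.53%, against 5.31%). The 7 were Hspa2, Hsp90b1, Dnajb11, Dnajb12, Dnajb13, Dnajc3 and Dnajc30, and the 2 were Hspa12b and Dnajb1. DESeq2 called 2 members, Hspa12b (adjusted P = 0.0169) and Hspa2 (adjusted P = 0.0274), which is 2.53%, against 2.63% of all genes, and limma-voom called 0 with 9 at an unadjusted P under 0.05. The members' log2 fold changes were centred near 0, with 41 above and 38 below and a median of 0.014 beside 0.0088 for all genes. By family, 5 of 14 HSP70 genes were above 0, 1 of 3 HSP90, 0 of 4 Dnaja, 8 of 11 Dnajb, 17 of 27 Dnajc, 4 of 9 Cct and 5 of 8 Hspb genes. Several of these counts turned with 1 library. Without control 5, 10 of 14 HSP70, 2 of 3 HSP90, 2 of 4 Dnaja and 4 of 8 Hspb genes were above 0, without control 6 it was 12 of 27 Dnajc genes, without morphine 3 it was 2 of 3 HSP90 genes, and without morphine 7 it was 3 of the 7 Hspb genes that then had a count. With 1 library left out 0 members were called. At an unadjusted P under 0.05 it was then 3 higher and 2 lower without control 5, 1 and 2 without control 1, 4 and 2 without control 6, 2 and 2 without morphine 8, 9 and 7 without control 2 and 7 and 6 without morphine 3. Here and below, the share of all genes at this level is not given for limma-voom or for fits with 1 library left out. Such counts are therefore not set against a background. Without control 5, 49 of 79 log2 fold changes were above 0, and without control 6, 34 of 79.

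**Figure D2:**
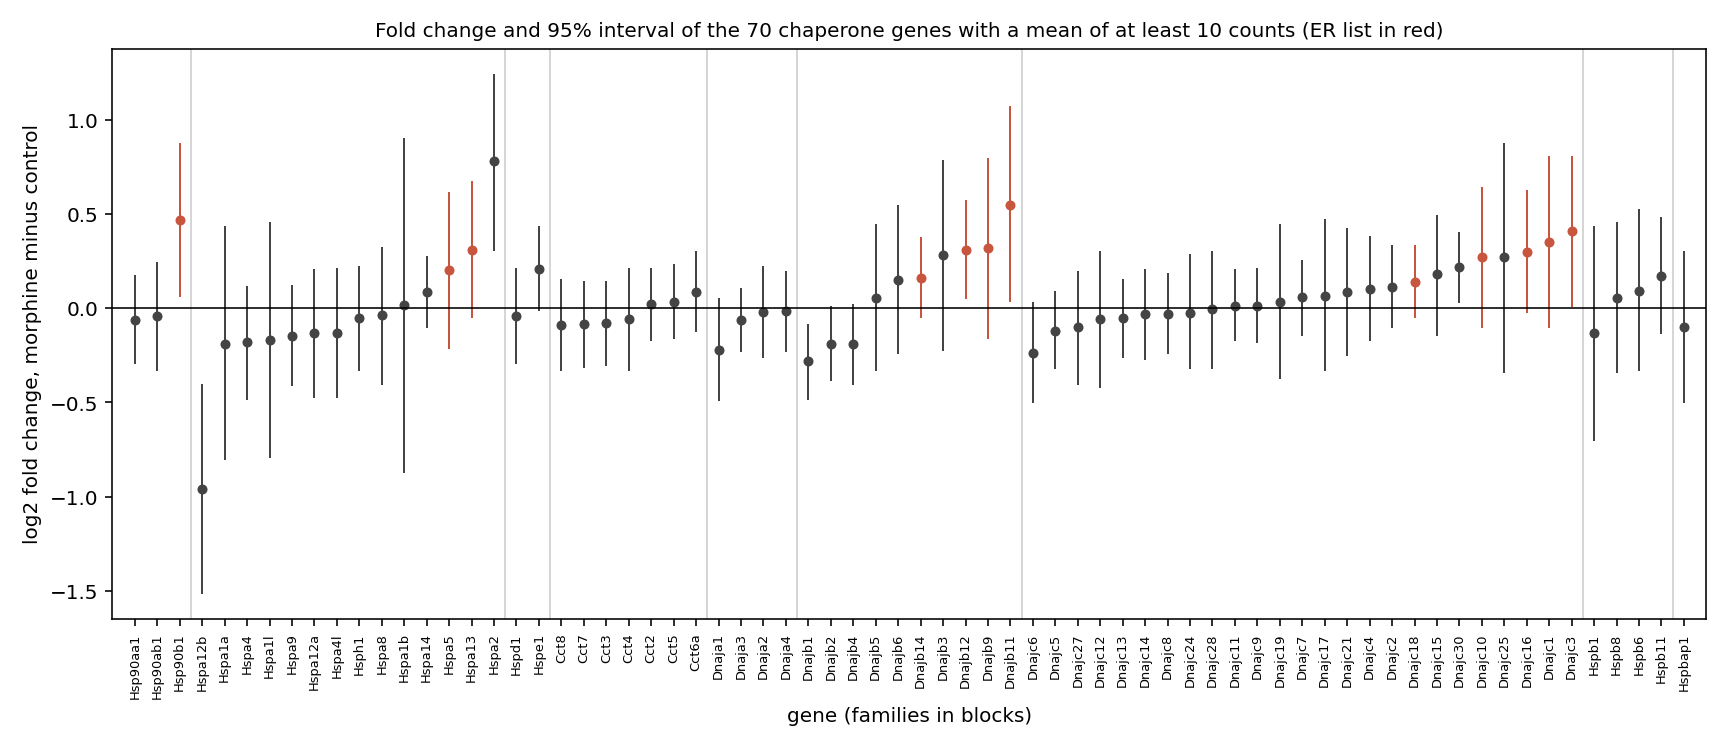
Log2 fold change of the morphine group against the control group (points) with 95% intervals (lines) for the 70 chaperone genes with a mean of at least 10 counts, in blocks by family, with the 12 genes of the ER list in red. All 12 red points lie above 0, while Hspa12b (-0.96) and Hspa2 (0.78) stand farthest from 0 among the genes shown.

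In 4 genes every morphine library was above every control library (Dnajb13, Dnajc18, Dnajc30 and Hspa14; 5.06%, against 3.34% of all genes), and in 3 every morphine library was below every control library (Dnajb1, Dnajb2 and Hspa12b; 3.8%, against 3.21%). Both shares are near the share among all genes. Dnajb13, a J protein of motile cilia and sperm tails, was at the edge of detection, with 0.0256, 0, 0.0717 and 0.109 CPM in the control libraries and 0.112, 0.121, 0.13 and 0.37 CPM in the morphine libraries, from a mean of 4.75 counts.

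Hspa12b (chr2:131127412-131145985), a distant HSP70 relative known from endothelial cells, had the lowest P value of the 79. It had 6.74, 3.31, 4.16 and 6.16 CPM in control 1, 2, 5 and 6 and 3.2, 1.97, 2.89 and 2.43 CPM in morphine 3, 4, 7 and 8, and the log2 fold change was -0.96 (SE 0.25, 95% interval -1.51 to -0.41, adjusted P = 0.154). The highest morphine library lay just under the lowest control library, so the groups did not overlap, by a narrow margin. The gene was at an unadjusted P under 0.05 in all 8 fits with 1 library left out. Of 10 endothelial markers 8 had a log2 fold change below 0 and 0 were at an unadjusted P under 0.05. Their summed level was 8.11 to 21.9 CPM in the control and 8.02 to 14.2 CPM in the morphine libraries, no marker was at 0 in any library, and their part in the Hspa12b difference was not tested.

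Hspa2 (chr12:76403812-76406938), an HSP70 best known for its role in male germ cells, had 13.4, 9.81, 13.9 and 13.9 CPM in control 1, 2, 5 and 6 and 13.6, 29.7, 24 and 20.2 CPM in morphine 3, 4, 7 and 8. Morphine 4, 7 and 8 were above every control library, and morphine 3 was at the level of the controls. The log2 fold change was 0.78 (SE 0.21, 95% interval 0.31 to 1.24, adjusted P = 0.167), the highest among members with a mean of at least 10 counts. Hspa2 too had an unadjusted P under 0.05 in all 8 fits with 1 library left out. The telencephalic marker sum was also lowest in morphine 3 and highest in morphine 4 among the morphine libraries, with 773 CPM in morphine 3, 1232 in morphine 4, 989 in morphine 7 and 1046 in morphine 8. For Hspa2, morphine 7 and 8 stood in the other order. The sum was 446, 523, 467 and 767 CPM in control 1, 2, 5 and 6, where Hspa2 had the same level in control 5 and control 6. The part of these cells in the Hspa2 difference was not tested.

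Dnajb1 (chr8:83608175-83612653), the main heat-inducible HSP40 of the cytosol, had 78.2, 80.2, 92.7 and 91 CPM in control 1, 2, 5 and 6 and 68.7, 73.2, 71.4 and 67.7 CPM in morphine 3, 4, 7 and 8. The groups did not overlap and the morphine libraries were close together, at 85.5 ± 7.39 CPM in the control group and 70.3 ± 2.51 CPM in the morphine group (SD, n = 4 each). The log2 fold change was -0.28 (SE 0.09, 95% interval -0.48 to -0.087, adjusted P = 0.233), and an unadjusted P under 0.05 was kept in all 8 fits with 1 library left out, the third member of which this was true. Dnajb2, a J protein enriched in neurons, also did not overlap between groups, with 132, 130, 134 and 131 CPM in control 1, 2, 5 and 6 and 127, 110, 105 and 121 CPM in morphine 3, 4, 7 and 8 and a log2 fold change of -0.19 (SE 0.088, adjusted P = 0.426).

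**Figure D3:**
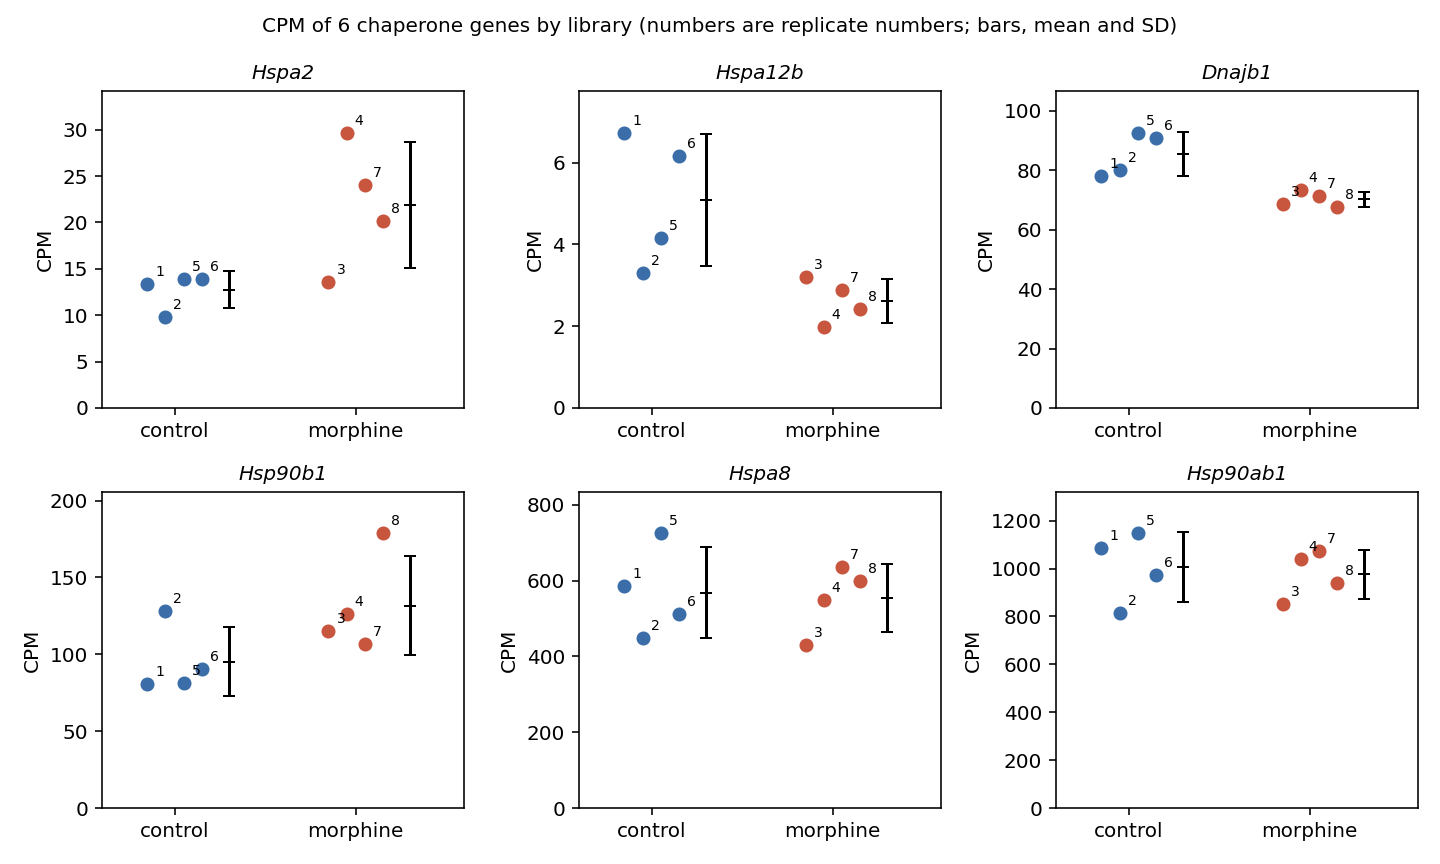
CPM by library for 6 chaperone genes, with replicate numbers beside the points and the mean and SD of each group (n = 4) as a bar at the right of it. Hspa12b and Dnajb1 show no overlap between groups, Hspa2 shows morphine 3 (13.6) among the controls, Hsp90b1 shows control 2 (128) among the morphine libraries, and Hspa8 and Hsp90ab1 overlap over most of their range.

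The HSP90 and HSP70 genes of the cytosol with the highest levels showed no difference beyond the spread of their libraries. Hsp90ab1 had 1084, 816, 1149 and 973 CPM in the control libraries and 850, 1039, 1074 and 938 CPM in the morphine libraries, a log2 fold change of -0.044 (SE 0.13, 95% interval -0.33 to 0.24, adjusted P = 0.915). Hspa8 ranged more widely, with 586, 448, 726 and 513 CPM in the control libraries and 430, 548, 636 and 600 CPM in the morphine libraries and a log2 fold change of -0.038 (SE 0.16, 95% interval -0.40 to 0.32, adjusted P = 0.948). For both genes the lowest control library was control 2 and the highest was control 5, and without control 5 the log2 fold changes were 0.01 and 0.085. Hsp90aa1 was at a log2 fold change of -0.063 (SE 0.11, adjusted P = 0.846), which was -0.003 without control 5 and -0.13 without control 2. Hsph1 was at a log2 fold change of -0.053 (SE 0.13, adjusted P = 0.891), which was 0.015 without control 5.

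The heat-inducible list (13 genes) holds members whose transcription is known to rise through the heat shock factors, namely Hspa1a, Hspa1b, Hsph1, Hspa8, Hspa4l, Hsp90aa1, Hsp90ab1, Dnaja1, Dnajb1, Dnajb4, Hspb1, Hspd1 and Hspe1. Hspa8 and Hsp90ab1 are on it although they are mainly constitutive. Of the 13 genes 2 had a log2 fold change above 0 and 11 below, with a median of -0.063, and 1, Dnajb1, was lower at an unadjusted P under 0.05, as were 5.31% of all genes. Single libraries moved this count: without control 5, 7 were above and 6 below with a median of 0.01, and without control 2, 1 was above and 12 below with a median of -0.15 and 3 at an unadjusted P under 0.05. Without morphine 3 that number was also 3, with 4 above and 9 below. The libraries' median deviation from the control mean was 0.069, -0.28, 0.20 and -0.051 in control 1, 2, 5 and 6 and -0.016, -0.034, 0.043 and -0.19 in morphine 3, 4, 7 and 8, so the control libraries spanned the morphine ones. Hspa1a, the classic inducible HSP70, had 2.95, 1.94, 4.59 and 2.55 CPM in the control libraries and 1.8, 2.94, 3.34 and 2.51 CPM in the morphine libraries. Its partner Hspa1b had 1.03, 0.63, 2.22 and 1.11 CPM in the control libraries and 0.759, 2.03, 1.23 and 1.05 CPM in the morphine libraries. Control 5 was the highest library for both.

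The co-chaperones of the inducible list overlapped between groups outside of Dnajb1. Dnaja1, an HSP40 that pairs with HSP70 in the cytosol, had 93, 71.1, 94.7 and 92 CPM in the control libraries and 88.4, 67.5, 77.4 and 67.1 CPM in the morphine libraries and a log2 fold change of -0.22 (SE 0.12, adjusted P = 0.513). Dnajb4 had 122, 108, 123 and 113 CPM in the control libraries and 116, 102, 97.3 and 93.6 CPM in the morphine libraries and a log2 fold change of -0.19 (SE 0.10, adjusted P = 0.461). Hspa4, an exchange factor of the HSP110 type and not on the inducible list, was at a log2 fold change of -0.18 (SE 0.14, adjusted P = 0.629).

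All 12 genes of the ER list had a log2 fold change above 0, as did 51.4% of all genes. The list was drawn up by hand with earlier results of these data known, so its count is a description and not independent support. It holds the ER forms of HSP70 and HSP90 (Hspa5, Hsp90b1, Hspa13) and 9 J proteins of the ER lumen or membrane (Dnajb9, Dnajb11, Dnajb12, Dnajb14, Dnajc1, Dnajc3, Dnajc10, Dnajc16, Dnajc18). It is not complete, since Dnajc14, a J protein of the ER membrane left off it, was at a log2 fold change of -0.032 (SE 0.11, adjusted P = 0.926). The value of Dnajc14 was -0.10 without control 5 and 0.056 without control 2. The median of the 12 was 0.31, with values from 0.14 to 0.55, beside 0.0088 for all genes and -0.03 for the 67 other chaperone genes (29 above 0 and 38 below, but 37 and 30 with a median of 0.01 without control 5). None passed the adjusted test by edgeR, DESeq2 or limma-voom. The number with an unadjusted P under 0.05 was 4 (Hsp90b1, Dnajb11, Dnajb12 and Dnajc3), where 6.79% of all genes were higher at this level, and it moved with single libraries, to 0 without control 1, 0 without control 5, 0 without morphine 8 and 8 without control 2. The 12 genes stayed above 0 in all 17 alternative fits, with a median between 0.20 (without morphine 8) and 0.44 (without control 2), and 0.23 without control 5. Members of 1 pathway in the same libraries are not independent of each other, so 12 of 12 is a count of genes and not of replicates.

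By library the ER list followed a pattern that crossed the groups. The summed level was 422, 585, 417 and 476 CPM in control 1, 2, 5 and 6 and 549, 578, 497 and 698 CPM in morphine 3, 4, 7 and 8. Control 2 was above 3 of the 4 morphine libraries, and control 1, 5 and 6 were below all 4. Control 2 was also the control library with the highest endothelial (21.9 CPM), astrocyte (658 CPM) and microglial (7.41 CPM) marker sums, but not the highest choroid plexus (53.7 CPM, against 112 CPM in control 6) or oligodendrocyte sum (479 CPM, against 1292 CPM in control 5). Morphine 8, the highest library of the ER list, had the highest choroid plexus (404 CPM), oligodendrocyte (1591 CPM) and astrocyte (684 CPM) sums. By the median deviation of the astrocyte markers from the control mean, control 2 was highest (1.06), with morphine 4 at 0.94 and morphine 8 at 0.90. Of the microglial markers, Trem2 and Itgam were at 0 in at least 1 library, and of the choroid plexus markers, Kcnj13. The part of these cells in the ER values was not tested.

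**Figure D4:**
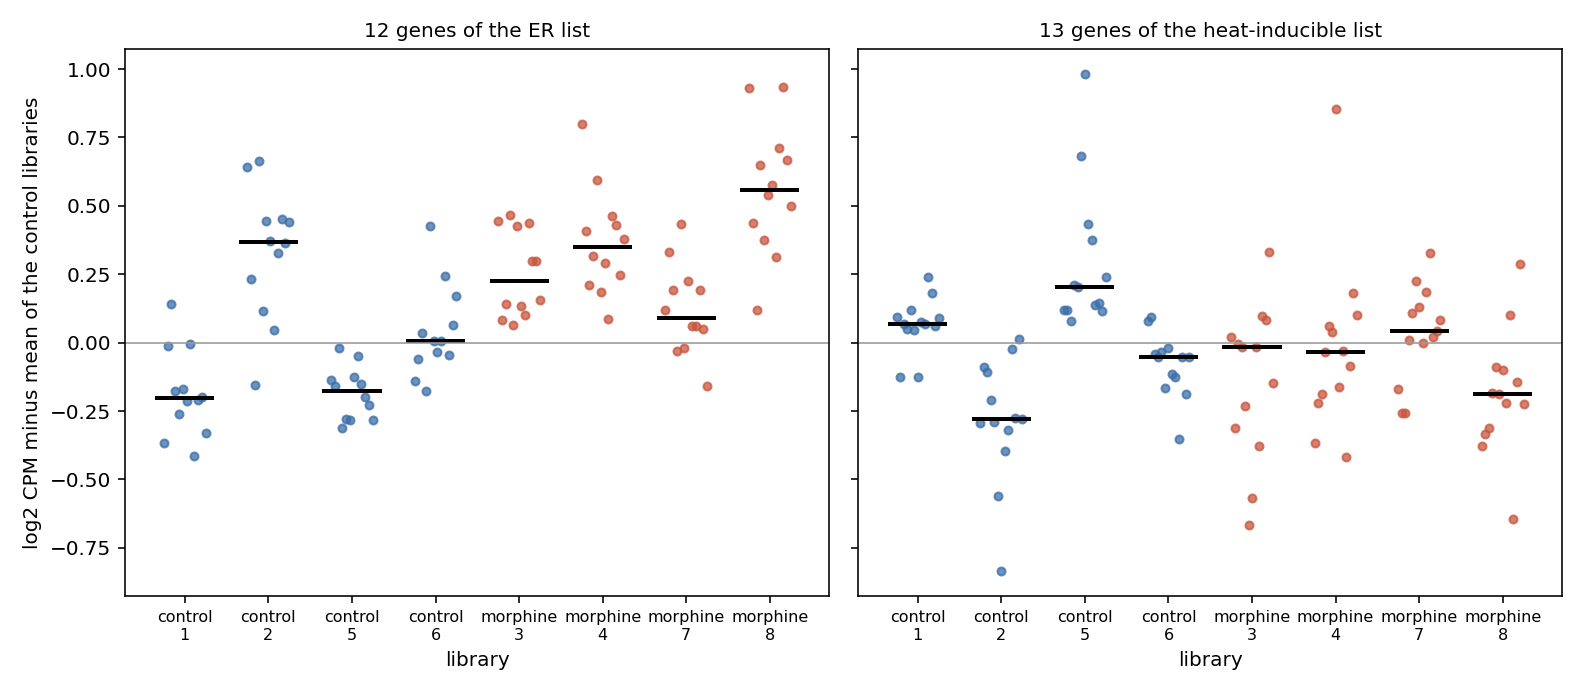
Deviation of log2 CPM from the mean of the control libraries for each of the 12 genes of the ER list (left) and the 13 genes of the heat-inducible list (right), 1 point a gene and a black line at the median, for each library. On the left the medians of the morphine libraries run from 0.093 to 0.56 and control 2 reaches 0.37. On the right control 2 is lowest (-0.28) and control 5 highest (0.20), and the morphine medians lie between them.

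Hsp90b1 (chr10:86690841-86705444), known as GRP94, had 81, 128, 81.6 and 90.6 CPM in control 1, 2, 5 and 6 and 115, 126, 107 and 179 CPM in morphine 3, 4, 7 and 8. Control 2 lay among the morphine libraries and morphine 8 stood above all others. The log2 fold change was 0.47 (SE 0.19, 95% interval 0.062 to 0.87, adjusted P = 0.336), and 0.28 without morphine 8. Hspa5 (chr2:34772090-34776529), the HSP70 that binds unfolded proteins in the ER, had 58.6, 100, 60.5 and 82.8 CPM in control 1, 2, 5 and 6 and 82, 95.8, 65.9 and 104 CPM in morphine 3, 4, 7 and 8. The groups overlapped over most of their range, with a log2 fold change of 0.20 (SE 0.19, 95% interval -0.21 to 0.61, adjusted P = 0.677). That of Hspa5 was 0.084 without control 1, 0.094 without control 5, 0.10 without morphine 8 and 0.37 without control 2.

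The J proteins of the ER bring clients to Hspa5. Dnajb11, a J protein of the BiP complex, had 7.36, 14.8, 8.63 and 8.61 CPM in control 1, 2, 5 and 6 and 12.9, 16.5, 10.3 and 18.1 CPM in morphine 3, 4, 7 and 8 and a log2 fold change of 0.55 (SE 0.24, 95% interval 0.038 to 1.07, adjusted P = 0.376). Control 2 was apart from the other controls here, and the same held for Dnajb9, a J protein induced by ER stress, with 15.3, 27.4, 13.9 and 15.3 CPM in control 1, 2, 5 and 6 and 23.9, 21.5, 16.9 and 27.1 CPM in morphine 3, 4, 7 and 8 and a log2 fold change of 0.32 (SE 0.22, 95% interval -0.16 to 0.79, adjusted P = 0.606). Dnajc3, known as an inhibitor of the kinase PERK, had 13.5, 22.6, 16.2 and 21.3 CPM in control 1, 2, 5 and 6 and 24.4, 24.8, 18.8 and 29.5 CPM in morphine 3, 4, 7 and 8 and a log2 fold change of 0.41 (SE 0.18, 95% interval 0.011 to 0.80, adjusted P = 0.398). Dnajb12, which works at the ER membrane, had 26.6, 31.5, 24 and 25.7 CPM in control 1, 2, 5 and 6 and 28.4, 35.6, 33.7 and 36.3 CPM in morphine 3, 4, 7 and 8 and a log2 fold change of 0.31 (SE 0.12, 95% interval 0.054 to 0.57, adjusted P = 0.317). With 1 library left out the log2 fold change ran from 0.20 (without control 5) to 0.59 (without control 2) for Dnajb9, from 0.42 (without control 1) to 0.82 (without control 2) for Dnajb11, and from 0.27 (without control 1) to 0.52 (without control 2) for Dnajc3. In Dnajb12 all morphine libraries but morphine 3 were above every control. Dnajc18 was the one ER member whose groups did not overlap, with 105, 109, 102 and 106 CPM in the control libraries and 113, 112, 110 and 131 CPM in the morphine libraries and a log2 fold change of 0.14 (SE 0.087, adjusted P = 0.564).

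Other genes of the ER stress response were listed from outside the symbol rule, although Hyou1, a relative of HSP70, and Sec63, a J protein, belong with these families by function. Of 22 genes 19 had a log2 fold change above 0 (51.4% of all genes), with a median of 0.22, and 3 had an unadjusted P under 0.05 (Atf6, Pdia3 and Sec63), all higher, where 6.79% of all genes were higher at this level, with 0 passing the adjusted test. The 3 below 0 were Atf4 (-0.15, SE 0.10), Ddit3 (-0.16, SE 0.16) and Trib3 (-0.63, SE 0.47). Trib3 had only 3 to 16 counts per library. Atf6, a membrane-held transcription factor of the unfolded protein response, had 31.5, 36.2, 39.9 and 42.6 CPM in control 1, 2, 5 and 6 and 45.4, 66.8, 62.5 and 57.7 CPM in morphine 3, 4, 7 and 8. All morphine libraries were above all controls, and the log2 fold change was 0.63 (SE 0.14, adjusted P = 0.0897). Their summed level by library was 774, 1116, 802 and 877 CPM in control 1, 2, 5 and 6 and 996, 1028, 892 and 1252 CPM in morphine 3, 4, 7 and 8, so control 2 was again above 3 of the 4 morphine libraries.

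Mitochondrial chaperones were spread around 0. Of 8 genes 5 had a log2 fold change above 0, with a median of 0.023, and 1, Dnajc30, had an unadjusted P under 0.05, where 6.79% of all genes were higher at this level. Without morphine 8, 3 were above 0 and 5 below with a median of -0.0087. The number higher at an unadjusted P under 0.05 was 0 without control 1, control 2, control 6 or morphine 7 and 2 without morphine 4, and Dnajc30 itself was under 0.05 in 4 of 8 fits with 1 library left out. Without control 2, 1 gene was lower at this level. Dnajc30 (chr5:135064206-135065365), a J protein linked to the turnover of respiratory complex I, had 51.9, 47.8, 54.9 and 49.4 CPM in control 1, 2, 5 and 6 and 61.1, 58.9, 59.1 and 58.2 CPM in morphine 3, 4, 7 and 8. The groups did not overlap, and the log2 fold change was 0.22 (SE 0.083, 95% interval 0.035 to 0.40, adjusted P = 0.322). The gene overlaps Bud23, and without strand the reads of the pair cannot be told apart. Hspe1 had 48.6, 47, 50.4 and 40.9 CPM in the control libraries and 58.6, 52.8, 48 and 56.9 CPM in the morphine libraries and a log2 fold change of 0.21 (SE 0.10, adjusted P = 0.45), Hspd1 had a log2 fold change of -0.041 (SE 0.11, adjusted P = 0.908), and Hspa9 had a log2 fold change of -0.15 (SE 0.12, adjusted P = 0.668). That of Hspa9 ran from -0.24 (without control 2) to -0.067 (without control 5) with 1 library left out. Of 11 other genes of mitochondrial protein quality control, 4 were above 0 with 0 at an unadjusted P under 0.05, and the lowest P was that of Trap1, the mitochondrial HSP90, at a log2 fold change of -0.15 (SE 0.13, adjusted P = 0.676).

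The chaperones of synaptic vesicles and endosomes all had log2 fold changes below 0, none with an unadjusted P under 0.05. Dnajc6 had 847, 618, 817 and 844 CPM in control 1, 2, 5 and 6 and 709, 631, 705 and 609 CPM in morphine 3, 4, 7 and 8 and a log2 fold change of -0.24 (SE 0.12, 95% interval -0.50 to 0.029, adjusted P = 0.477). Control 2 was among the morphine libraries, and the other 3 controls were above all of them. Dnajc5 had 676, 598, 662 and 667 CPM in control 1, 2, 5 and 6 and 644, 568, 598 and 587 CPM in morphine 3, 4, 7 and 8 and a log2 fold change of -0.12 (SE 0.092, 95% interval -0.32 to 0.084, adjusted P = 0.648). For Dnajc5 the 3 control libraries other than control 2 were again above every morphine library. Dnajc13, a J protein of endosomes, was at a log2 fold change of -0.054 (SE 0.10, adjusted P = 0.852). The median of the 3 genes was -0.12. Without control 2 it was -0.16, with 1 of the 3 lower at an unadjusted P under 0.05.

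CCT subunits had small differences. Of the 9 Cct genes 4 had a log2 fold change above 0 and 5 below, with a median of -0.06, and none had an unadjusted P under 0.05. The 7 expressed subunits lay between -0.087 and 0.087. Cct2 had 209, 191, 209 and 199 CPM in the control libraries and 212, 183, 211 and 213 CPM in the morphine libraries, Cct8 263, 206, 266 and 245 CPM in the control libraries and 259, 208, 236 and 220 CPM in the morphine libraries, and Cct7 198, 150, 192 and 184 CPM in the control libraries and 177, 167, 178 and 162 CPM in the morphine libraries. Morphine 4 and control 2 were the lowest libraries of Cct2. With 1 library left out the count above 0 ran from 2 (without control 6 or morphine 7) to 4, and the median from -0.14 (without control 2) to -0.029 (without control 5). A list of ring partners holds Tcp1, prefoldin subunits, which hand actin and tubulin to the ring, and the phosducin-like genes Pdcl and Pdcl3, and 5 of its 8 genes in the table were above 0 and 0 had an unadjusted P under 0.05, with the lowest P at Pfdn1, whose log2 fold change was -0.20 (SE 0.13, adjusted P = 0.572).

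Chaperones of ribosomes, RNA splicing and histones (6 genes) had a median log2 fold change of 0.077, with 5 above 0 and none with an unadjusted P under 0.05. Hspa14, an HSP70 that works at the ribosome with Dnajc2, was in a narrow band, with 31.4, 31.4, 30.6 and 31.5 CPM in the control libraries and 32.9, 33.4, 34.5 and 32 CPM in the morphine libraries. The morphine libraries were all above the controls and the difference was small, at a log2 fold change of 0.088 (SE 0.084, adjusted P = 0.678).

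Co-chaperones and regulators outside the families were tested as background. Of 22 co-chaperones 8 were above 0 and 14 below, with a median of -0.046. Fkbp5, a co-chaperone of the glucocorticoid receptor, had a log2 fold change of 0.27 (SE 0.11, adjusted P = 0.354) and Hspbp1, an exchange factor of HSP70, -0.23 (SE 0.10, adjusted P = 0.384), the 2 with an unadjusted P under 0.05, a level at which 6.79% of all genes were higher and 5.31% lower. Of the 4 genes of the heat shock factor list 1 was above 0, and Hsf4, the one with an unadjusted P under 0.05, had 29.2, 27.4, 27.4 and 26.1 CPM in control 1, 2, 5 and 6 and 19.2, 18.6, 20.8 and 24 CPM in morphine 3, 4, 7 and 8 and a log2 fold change of -0.41 (SE 0.11, adjusted P = 0.152), with the morphine libraries all below the controls. Hsbp1, a small protein that binds heat shock factor, was apart in the other direction, with 321, 321, 315 and 304 CPM in control 1, 2, 5 and 6 and 429, 345, 343 and 344 CPM in morphine 3, 4, 7 and 8 and a log2 fold change of 0.21 (SE 0.10, adjusted P = 0.429). Among all genes 3.34% were apart with morphine above and 3.21% with morphine below. Hsf1, the main heat shock factor, had a log2 fold change of -0.016 (SE 0.10, adjusted P = 0.97).

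Comparing female with male libraries, edgeR called 0 of the 79 chaperone genes, where 1 of all genes (0.00528%) was called. At an unadjusted P under 0.05 the count was 2 (Dnajb13 and Dnajc28; 2.53%, against 3.1% of all genes), and DESeq2 and limma-voom called 0. This comparison includes control 5 as female, and without it 0 were called and 2 had an unadjusted P under 0.05. That number ran from 0 (without control 2) to 7 (without morphine 4) with 1 library left out, with 1 without control 1, control 6 or morphine 7. The sex by morphine interaction, which asks whether the morphine effect differed between sexes, called 0 of 79 by edgeR (0% of all genes), with 0 at an unadjusted P under 0.05 (1.72% of all genes) and 0 by DESeq2 and by limma-voom. With 1 library left out 0 to 3 genes had an unadjusted P under 0.05 for the interaction, 3 of them without control 1. By the labels it rests on 2 libraries per sex and group, and 1 of the 2 female controls is control 5, whose Y-linked counts go against its label.

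Several transcript rows were listed for 16 of the 79 genes, and in 11 of them every row was within 10% of the largest by total counts over the 8 libraries. The rows of Dnajb6, a J protein that keeps aggregation-prone proteins in solution, differed most. Its long form was at 36.4% of the largest row in the control group and at 31.9% in the morphine group. The share of the morphine group leans on morphine 3, where the largest row had 910 counts and the long form 203. In morphine 4, 7 and 8 the largest row had 505, 478 and 719 counts and the long form 206, 176 and 247. The rows of Dnajb2 stood at 77.6% of the largest in the control group and 80.7% in the morphine group for 3 of its shorter forms. Its shortest form stood at 78.1% and 81.2%. These shares were not tested.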

How the data were processed

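The authors deposited unnormalized counts of reads, 1 row for each RefSeq transcript and 1 column for each library. The study's methods describe quantification with Salmon on an mm10 index with GC correction and tximport to genes, but the deposited whole-number counts per transcript are not that gene-level matrix, and how they were made and whether strand was used are not given in the sources used here. The submitters' processing notes name mm10 and DESeq2. The row with the highest total was kept per gene, and genes at 0 in every library were dropped (18939 genes left). All 8 columns have a sample.

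The main test was the quasi-likelihood test of edgeR 4.0.16 in R 4.3.3, on counts with TMM scaling and condition alone in the model, with Benjamini-Hochberg adjustment and a threshold of 0.05. Sex was tested with condition as a covariate, and then their interaction. SE is the log2 fold change over the square root of the F statistic, and 95% intervals use its degrees of freedom. CPM are from TMM library sizes; lengths and 50-base words are from GENCODE M21 transcripts, and coordinates and promoters from RefSeq (GRCm38.p6). Alternatives were DESeq2 1.42.0, limma-voom (limma 3.58.1), other scalings and filters, robust empirical Bayes, sums over transcripts, sex as a covariate, and each library left out. The tests were tried on simulated counts. Figures were drawn with matplotlib 3.10.9.

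Members and lists were chosen with earlier results of these data known. Named genes were the 8 with the lowest P in each direction, the 2 highest per length in each family, fixed members, and those under 10 counts on average; of the other pathway lists, the lowest P. Dnajb13, Dnajc13, Dnajc14, Dnajc18, Dnajc28, Hspa14 and further genes of the ER stress and heat shock factor lists, and Dnajb6 rows, were named after their values were seen. The reads were not used here.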

Additional observations from a re-analysis of the deposited data

Results flagged for a closer look

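In 8 of 68 groups of 4 libraries examined for named genes, 1 library lay far from the other 3 (its gap to the nearest, over the range, exceeded Dixon's critical value). Chance flags about 1 in 20 groups. Control 2 was that library for 5 genes: Dnaja1 (71.1 CPM, the others 92 to 94.7), Dnajb9 (27.4, the others 13.9 to 15.3), Dnajb11 (14.8, the others 7.36 to 8.63), Dnajc6 (618, the others 817 to 847) and Hspa2 (9.81, the others 13.4 to 13.9). It was high for both ER genes and low for the other 3. Morphine 8 was apart for Hspb6 (11.5 CPM, the others 7.01 to 7.48) and Dnajb13 (0.37 CPM, the others 0.112 to 0.13), and morphine 4 for Cct2 (183 CPM, the others 211 to 213).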

How the results depend on the processing

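No paired analysis was possible because the control libraries (1, 2, 5 and 6) and the morphine libraries (3, 4, 7 and 8) share no replicate number. The number of chaperone genes called for morphine was 0 by edgeR and 2 by DESeq2, with 0 in the other alternatives and in each fit with 1 library left out (0 to 0). For sex and for the interaction it was 0 in every alternative run. With 1 library left out, the number at an unadjusted P under 0.05 for morphine ran from 3 (without control 1) to 16 (without control 2), with 5 without control 5 and 4 without morphine 8. The members' median log2 fold change ran from -0.016 to 0.037 with 1 library left out, within its SD of 0.05 between libraries. Of 304 pairs of a named gene and another setting, 3 turned direction, Cct2 (-0.0037) and Hspa1b (-0.009) with upper-quartile factors and Hspa1b (-0.0023) with filterByExpr; 2 passed the threshold, Hspa12b (-0.96) and Hspa2 (0.78) with DESeq2. The pairs hold the 34 genes named by lowest P, by level or as fixed members, and not those named only for low counts or later. With 1 library left out 251 of 272 pairs kept direction, and 10 of the 34 genes turned: Cct2 (-0.014 to 0.07), Dnaja2 (-0.10 to 0.015), Hsp90ab1 (-0.13 to 0.017), Hspa12a (-0.24 to 0.0023), Hspa1a (-0.35 to 0.077), Hspa1b (-0.30 to 0.44), Hspa8 (-0.14 to 0.085), Hspb6 (-0.11 to 0.18), Hspd1 (-0.13 to 0.0067) and Hsph1 (-0.14 to 0.015). Outside the 34, others turned too, among them Dnajb6 (-0.079 to 0.23), Dnajc14 (-0.10 to 0.056) and Dnajc28 (-0.10 to 0.10). So did Cct6b, Cct8l1, Dnajc22, Dnajc5b, Hspb2 and Hspb3, which have low counts. The cause was not tested. Depth limits the 9 genes with a mean under 10 counts.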
